A study of Rattus norvegicus with 15 samples.

Results

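Glucocorticoid-responsive genes were followed in the retina of adult male Long-Evans rats, a pigmented strain, at 3 clock hours and with or without light. The 8 genes were Nr3c1, Fkbp5, Tsc22d3, Sgk1, Klf9, Cebpd, Errfi1 and Dusp1, chosen by name as the receptor for glucocorticoids and genes known to respond to it. Every probe set whose array annotation gave only 1 of these symbols was kept, which gave 15 of the 31099 probe sets. All 15 were tested, since no filter on low values was used. Retinal RNA of 5 conditions was hybridised to 15 Affymetrix RAT230_2 arrays, with 3 replicas in each condition. All rats spent the night in darkness. The 0 ZT dark group was collected at 7 am, the 3 ZT dark group at 10 am and the 6 ZT dark group at 1 pm, all still in darkness. The 3 ZT light and 6 ZT light groups were collected at those same hours after exposure to light of 1000 lux. The sample titles and the study's text give 6 hours of light for the 6 ZT light group, whereas its source label gives 3 hours. No source used here says how many rats or retinas made up a replica, so the p-values measure only how these samples varied, and that variation may be technical. Corticosterone itself was not analysed here.

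Glucocorticoids are steroid hormones of the adrenal cortex, and corticosterone is the main one in rats. The hormone enters the cell and binds the glucocorticoid receptor, which leaves its chaperones, moves to the nucleus and raises or lowers the transcription of target genes. In rats, which are active by night, circulating corticosterone is low in the morning and peaks around the onset of darkness. A comparison of hours in continuous darkness asks whether these genes differ between the hours sampled. The time spent in unbroken darkness grew with the hour, so hour and length of darkness cannot be told apart. All samples were taken between morning and early afternoon, and none around the onset of darkness. Whether these genes follow the daily peak of corticosterone was therefore not tested. A comparison of light with darkness at 1 hour asks whether these genes follow light. In the retina the receptor is best known in Müller glia, the radial glial cells that support the neurons.

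Values are log2 signals per probe set, so a difference of 1 is a doubling, and levels of different probe sets cannot be set against each other. Each difference comes from a linear model (limma) with condition and replica number as terms, is given ± its standard error (SE, n = 3 per condition), and is called when its p, adjusted over 31042 probe sets after the controls were left out, is under 0.05. The median signal of an array was 8.28 to 8.32 in replica 1, 8.58 to 8.68 in replica 2 and 8.75 to 8.80 in replica 3. The modelled differences were therefore taken within a replica number. Whether groups overlap, as given below, compares values across replica numbers and so also holds these offsets. In 2 arrays, 0 ZT dark replica 1 and 3 ZT light replica 2, the 3′ control probe set of Actb exceeded the 5′ one by 2.10 and 2.40, against 0.71 to 1.37 in the other 13. This difference grows as RNA is shortened from its 5′ end, and several differences are therefore also given without these arrays. As for the tissue, the rod genes Pde6b, Gnat1 and Sag lay between the 99th and the 100th percentile of all probe sets. Lens and pigment epithelium genes were also measured, and their group means differed, as did those of some markers of retinal neurons and glia. No marker gene was called in any comparison, and arrays of 1 group could differ widely. The mean log2 level of the lens genes ran from 10.3 to 12.45 within 3 ZT light. In whole tissue, fewer cells of a type and less RNA per cell cannot be told apart.

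None of the 15 probe sets was called in any of 9 comparisons. Of the resulting 135 tests (limma), 16 had an unadjusted p under 0.05, and the lowest adjusted p was 0.364. Over the array 17010 of 279378 tests did (6.09%), a smaller share than among the members. The members' tests share arrays and include several probe sets of the same gene, so they are not independent. Calls were rare on the whole array too: the share of all probe sets called was 0.00322% in 3 ZT light against 0 ZT dark and in 3 ZT light against 3 ZT dark, 0.00644% in light against darkness averaged over both hours, and 0% in the others. By the ratio rule of the study's methods, no member was above 1.6 or below 0.7 times its reference in all 3 replicas of any comparison. Over the comparisons of 2 conditions, counting each probe set once per comparison, 0.127% of 217294 cases met this rule. With limits of 1.3 and 0.77, which 0.629% of these cases met, 1 member probe set passed in 1 comparison. The median difference of the 8 genes, each by its brightest probe set, was 0.01 in 3 ZT dark against 0 ZT dark, where that of all probe sets was also 0.01. In 6 ZT dark against 0 ZT dark the medians were -0.07 and 0.01, in 3 ZT light against 3 ZT dark 0.05 and 0, and in 6 ZT light against 6 ZT dark 0.05 and -0.01.

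**Figure D1:**
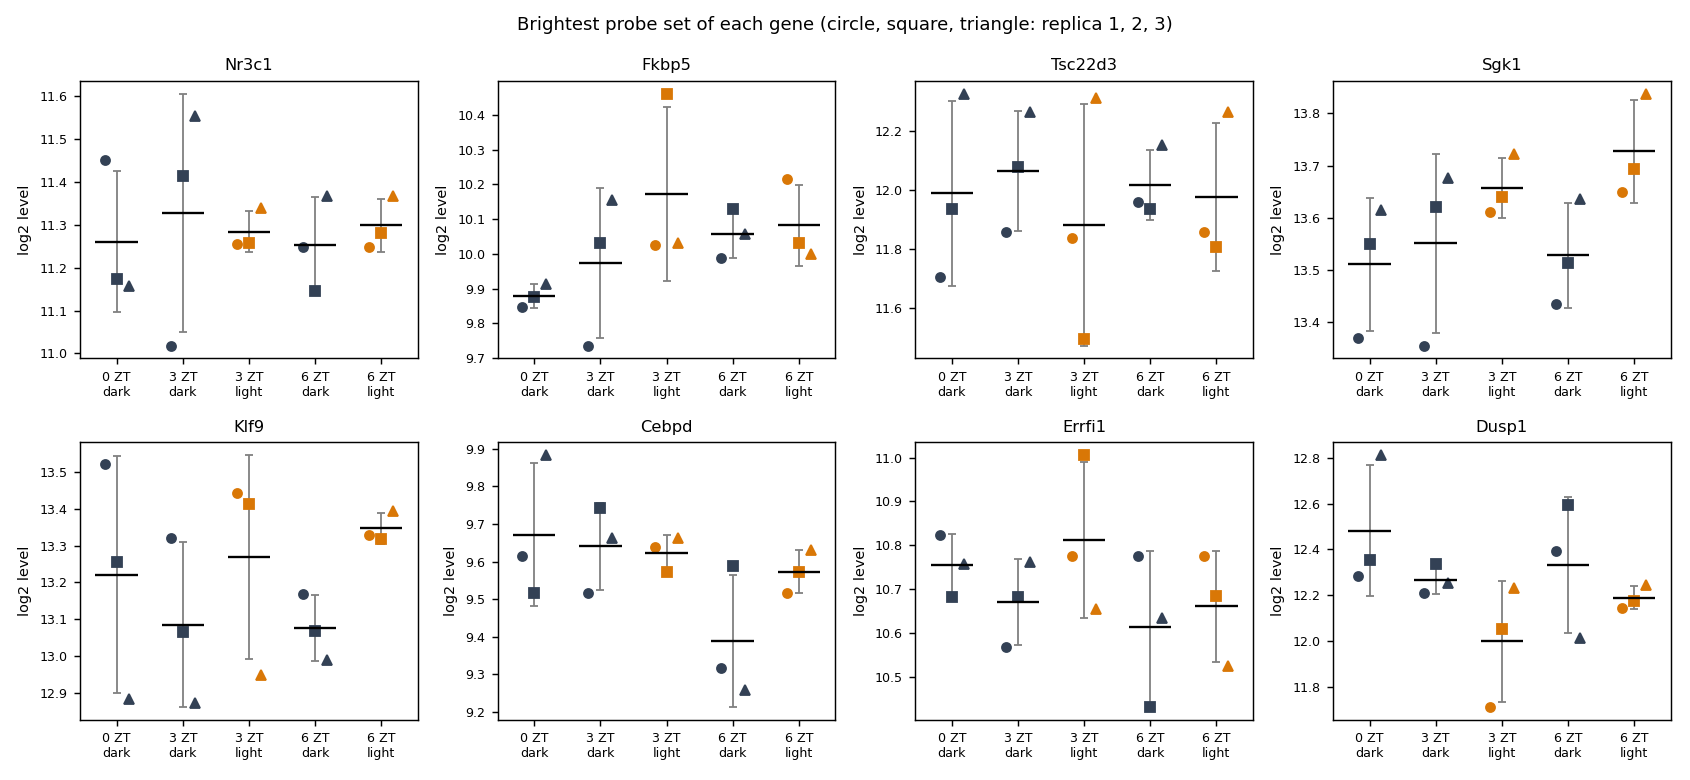
Log2 level (vertical axis) of the brightest probe set of each of the 8 genes in the 5 conditions; dark symbols are arrays from darkness and orange ones from light, the shape gives the replica, the black line is the mean and the grey bar the SD of 3 arrays. Sgk1 and Klf9 lie higher in 6 ZT light than in 6 ZT dark without overlap. The mean of Fkbp5 is lowest in 0 ZT dark, though its lowest single array is in 3 ZT dark and those groups overlap.

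RefSeq promoter windows (build GRCr8) were found for 7 of the 8 genes, 12 windows in all, and Cebpd had none. The 250 bases before the start site are shown for Fkbp5, Sgk1 and Dusp1, the members whose brightest probe set in 6 ZT light did not overlap that in 0 ZT dark, with capitals on each match to a motif searched on both strands. The Fkbp5 window is chr20:6543556-6543805, minus strand, the Sgk1 window, 1 of 3, is chr1:24804832-24805081, minus strand, and the Dusp1 window is chr10:17184603-17184852, plus strand, each written 5′ to 3′ along the gene.
Fkbp5: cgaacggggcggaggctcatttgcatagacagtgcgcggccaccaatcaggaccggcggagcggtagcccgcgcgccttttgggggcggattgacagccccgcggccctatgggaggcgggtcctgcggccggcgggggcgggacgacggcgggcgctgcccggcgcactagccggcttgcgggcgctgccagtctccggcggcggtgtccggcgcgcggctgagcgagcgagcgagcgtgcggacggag
Sgk1: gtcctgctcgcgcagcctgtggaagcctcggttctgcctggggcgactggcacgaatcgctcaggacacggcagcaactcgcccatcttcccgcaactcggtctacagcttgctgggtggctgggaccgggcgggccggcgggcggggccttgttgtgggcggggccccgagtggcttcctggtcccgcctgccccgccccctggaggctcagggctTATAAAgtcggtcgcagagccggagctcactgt
Dusp1: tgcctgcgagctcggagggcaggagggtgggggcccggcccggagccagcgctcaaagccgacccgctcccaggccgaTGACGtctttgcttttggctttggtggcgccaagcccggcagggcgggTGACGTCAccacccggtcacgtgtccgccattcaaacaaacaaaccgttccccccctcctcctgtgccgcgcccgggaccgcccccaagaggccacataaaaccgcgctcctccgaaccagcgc
The palindrome bound by the receptor, AGAACA and its reverse complement with 3 bases between them, and AGAACA by itself were in none of the 12 windows, against 0.012% and 17.5% of all 33469 windows of the same length. The cyclic AMP response element TGACGTCA was in the Dusp1 window, starting at position -124 from the start site, and in 1.59% of all windows. Its part TGACG, which lies within it, also stood alone at position -172 of Dusp1 and was in windows of 4 genes and in 18.2% of all. TATAAA was in windows of Sgk1, Errfi1 and Tsc22d3 and in 12.9% of all, and stood at position -33 in the window shown for Sgk1. A match or its absence is a description of these letters only. The palindrome is so rare in windows of this length that its absence from 12 of them says little. Bases outside these windows were not searched.

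Nr3c1 encodes the glucocorticoid receptor. Its brightest probe set read 11.45, 11.17 and 11.16 in 0 ZT dark, 11.02, 11.41 and 11.55 in 3 ZT dark and 11.25, 11.15 and 11.37 in 6 ZT dark, for replicas 1, 2 and 3. With light it read 11.26, 11.26 and 11.34 at 3 ZT, and in 6 ZT light 11.25, 11.28 and 11.37. The 5 conditions overlapped throughout. Their means spanned 0.07, and 5.08% of all probe sets spanned as little or less. Between 0 and 6 ZT in darkness the difference was -0.01 ± 0.13, with a 95% interval from -0.28 to 0.27 (limma, adjusted p = 0.993). Without the 2 arrays of high Actb difference it was 0.14. The dimmer Nr3c1 probe set lay at the 19.8th percentile of mean signal and had its lowest mean in 0 ZT dark.

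Fkbp5 encodes a co-chaperone of the receptor complex that lowers the receptor's affinity for hormone and is itself induced by the receptor. Both of its probe sets had their lowest mean in 0 ZT dark and their highest in 3 ZT light. The brighter one read 9.85, 9.88 and 9.91 in 0 ZT dark, and 9.99, 10.13 and 10.06 in 6 ZT dark. These groups did not overlap. Of all probe sets, 0.673% were higher in 6 ZT dark without overlap and 15.5% were higher in all 3 replicas. The difference was 0.18 ± 0.13 (limma, adjusted p = 0.695). In the same comparison all 13 lens genes listed were higher in 6 ZT dark, with a median difference of 1.14, and 6 of 7 pigment epithelium genes were lower, with a median of -0.42. Their part in the Fkbp5 difference was not tested. The dimmer one read 8.54, 8.16 and 8.72 in 0 ZT dark and 8.90, 8.53 and 8.95 in 6 ZT dark, which overlapped although each replica was higher at the later hour, by 0.36, 0.38 and 0.23. Its difference was 0.32 ± 0.10, with an unadjusted p of 0.00689 and an adjusted p of 0.495 (limma). Leaving out the 2 arrays gave 0.19 and 0.35. Between 0 and 3 ZT in darkness both probe sets were lower in replica 1 and higher in replicas 2 and 3, with differences of 0.10 each.

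With light at 3 ZT both Fkbp5 probe sets had a higher mean, though not beyond the threshold, and the brighter one was lower with light in replica 3. With light the brighter probe set read 10.03, 10.46 and 10.03, against 9.74, 10.03 and 10.16 in 3 ZT dark, and the dimmer one read 8.93, 8.77 and 8.99, against 8.41, 8.53 and 8.78. Both comparisons overlapped. The differences were 0.20 ± 0.13 and 0.32 ± 0.10 (limma, adjusted p = 0.895 for both), and 0.06 and 0.29 without the 2 arrays. The value of the brighter probe set at 3 ZT thus rested largely on replica 2, the array with the highest Actb difference. In the same comparison 12 of 13 lens genes were higher, with a median of 0.47. All 5 Müller glia and all 3 bipolar cell markers measured were lower, with medians of -0.21 and -0.56. Without the 2 arrays the 3 medians were 1.23, -0.13 and -0.07. Their part in the Fkbp5 differences was not tested. At 6 ZT the light differences were 0.02 ± 0.13 and 0.06 ± 0.10. Whether the light effect differed between the hours was tested directly, and it did not pass the threshold for the dimmer probe set (-0.26 ± 0.14, limma, adjusted p = 0.776). Against 0 ZT dark, where hour and light change together, 3 ZT light was higher by 0.29 and 0.43, both without overlap (1.29% of all probe sets) and 0.17 and 0.41 without the 2 arrays, and 6 ZT light by 0.20 and 0.39, without overlap in the brighter one (1.74% of all). The adjusted p of 0.364 for the dimmer probe set in 3 ZT light against 0 ZT dark was the lowest of any member. Over the 15 arrays, centred within each replica number, the probe sets had a Pearson r of 0.757, as a description.

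**Figure D2:**
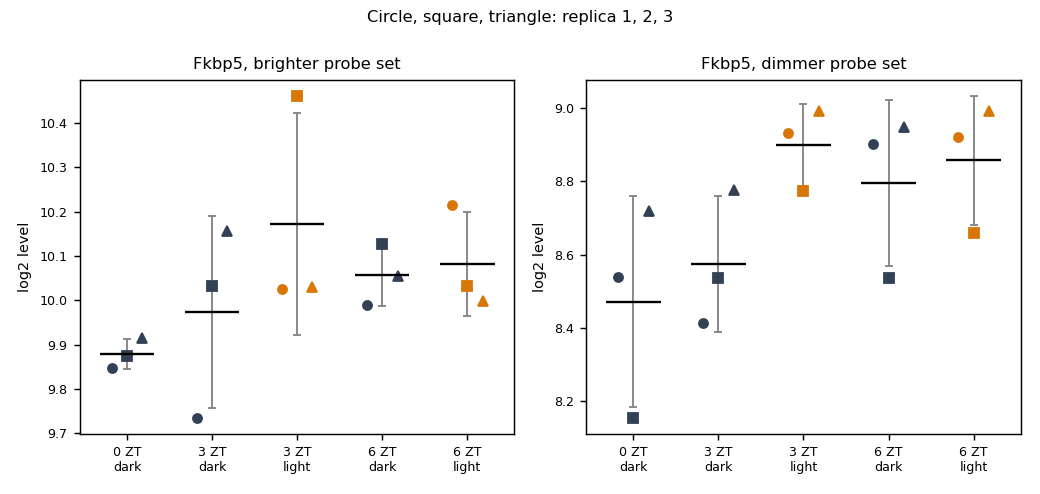
Log2 level (vertical axis) of both Fkbp5 probe sets in the 5 conditions (dark symbols from darkness, orange from light), with the mean (black line), the SD of 3 arrays (grey bar) and the replica given by the symbol's shape. Each replica of 6 ZT dark and of both light groups lies above the 0 ZT dark array of its own number in both panels.

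Tsc22d3 encodes the glucocorticoid-induced leucine zipper protein, a direct target of the receptor in immune cells. It read 11.71, 11.94 and 12.33 in 0 ZT dark, 11.86, 12.08 and 12.26 in 3 ZT dark, and 11.96, 11.94 and 12.15 in 6 ZT dark. In the light it read 11.84, 11.50 and 12.31 at 3 ZT and 11.86, 11.81 and 12.26 at 6 ZT. Every pair of conditions overlapped, and the lowest value belonged to 3 ZT light replica 2, an array with a high Actb difference. Between 0 and 6 ZT in darkness the difference was 0.03 ± 0.12, with a 95% interval from -0.24 to 0.29, and -0.04 without the 2 arrays of high Actb difference. The light difference at 3 ZT was -0.18 ± 0.12, and -0.04 without the 2 arrays.

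Sgk1 encodes a serine and threonine kinase, induced by glucocorticoids and mineralocorticoids, that acts on ion channels and transporters. In darkness it changed little with the hour. It read 13.37, 13.55 and 13.61 in 0 ZT dark, 13.35, 13.62 and 13.68 in 3 ZT dark, and 13.43, 13.51 and 13.64 in 6 ZT dark. The differences from 0 ZT dark were 0.04 ± 0.06 and 0.02 ± 0.06, and the 95% interval of the latter ran from -0.12 to 0.16. The light groups read 13.61, 13.64 and 13.72 at 3 ZT and 13.65, 13.69 and 13.84. At 6 ZT the light and dark arrays did not overlap, and 2.33% of all probe sets were higher in 6 ZT light without overlap. Light exceeded darkness in 6 of 6 pairs of equal hour and number, where 7.71% of all probe sets were higher in all 3 replicas at 3 ZT and 17.2% at 6 ZT, by 0.26, 0.02 and 0.05 at 3 ZT and by 0.21, 0.18 and 0.20 at 6 ZT. The difference was 0.11 ± 0.06 at 3 ZT, 0.20 ± 0.06 at 6 ZT and 0.15 ± 0.04 averaged over both, with a 95% interval from 0.05 to 0.25 for the average. With unadjusted p of 0.00988 at 6 ZT and 0.00614 for the average, the adjusted p were 0.518 and 0.737 (limma), so Sgk1 was not called. Its residual SD was 0.05, against a median of 0.15 over all probe sets.

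Klf9 encodes a transcription factor of the Krüppel-like family induced by glucocorticoids and thyroid hormone in the rodent brain. Its brightest probe set read 13.52, 13.26 and 12.88 in 0 ZT dark, 13.32, 13.06 and 12.87 in 3 ZT dark, and 13.17, 13.07 and 12.99 in 6 ZT dark. It was lower at 3 ZT than at 0 ZT in all 3 replicas, as were 8.52% of all probe sets, with a mean difference of -0.14 ± 0.12 (limma, adjusted p = 1) that was -0.05 without the 2 arrays of high Actb difference. The light groups read 13.44, 13.41 and 12.95 at 3 ZT and 13.33, 13.32 and 13.40. As with Sgk1, light exceeded darkness in 6 of 6 pairs. The excess was 0.13, 0.35 and 0.08 at 3 ZT and 0.16, 0.25 and 0.41 at 6 ZT, where the groups did not overlap. Of all probe sets, 7.71% were higher in all 3 replicas at 3 ZT and 17.2% at 6 ZT, and 2.33% were higher at 6 ZT without overlap. For neither gene is the share of all probe sets higher in all 6 pairs given here. The light difference was 0.18 ± 0.12 at 3 ZT (adjusted p = 0.895), 0.27 ± 0.12 at 6 ZT (adjusted p = 0.581) and 0.23 ± 0.09 averaged (limma, adjusted p = 0.737). Replica 2 at 3 ZT includes an array of high Actb difference, and without both such arrays the 3 ZT value was 0.12 ± 0.13. The study's groups do not separate light from what else differed between these samples. Between 6 ZT dark and 6 ZT light, all 13 lens genes listed had a lower mean in light, with a median difference of -1.72 and a mean log2 level of 12.2 to 12.9 in darkness against 8.93 to 11.9 in light. Of the 7 pigment epithelium genes measured, 6 were higher in light, with a median difference of 0.58. All 5 ganglion cell markers were lower in light, with a median of -0.46, and all 3 bipolar cell markers measured were higher, with a median of 0.26. The ganglion cell mean in darkness and light was 12.03 and 11.13 in replica 1, 12.02 and 11.86 in replica 2, and 12.22 and 12.11 in replica 3. All 6 microglia and all 3 amacrine cell markers were also lower, with medians of -0.09 and -0.10, and all 3 rod markers measured were higher, with a median of 0.07. The part of these in the Sgk1 and Klf9 differences was not tested.

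The 2 other Klf9 probe sets did not follow the brightest. In 6 ZT light against 6 ZT dark the dimmer one differed by -0.33 ± 0.33. It read 8.18, 9.19 and 9.59 in 0 ZT dark, 9.26, 9.42 and 10.08 in 6 ZT dark, and 9.29, 8.77 and 9.69 in 6 ZT light. Its residual SD of 0.46 exceeded that of 96.9% of all probe sets. Over the 15 arrays, its r with the brightest was -0.332.

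Cebpd encodes a transcription factor of the CCAAT/enhancer-binding family, induced by glucocorticoids and by inflammation. Its brightest probe set read 9.61, 9.52 and 9.88 in 0 ZT dark, 9.52, 9.74 and 9.66 in 3 ZT dark, and 9.32, 9.59 and 9.26 in 6 ZT dark. The 6 ZT dark group was lower than 3 ZT dark in all 3 replicas, as were 11.3% of all probe sets, but the groups overlapped. The difference was -0.25 ± 0.11 from 3 ZT dark (limma, adjusted p = 0.863) and -0.28 ± 0.11 from 0 ZT dark (limma, adjusted p = 0.536). The 2 dimmer Cebpd probe sets differed from 0 ZT dark in the other direction, by 0.10 ± 0.34 and 0.06 ± 0.10, and from 3 ZT dark by 0.03 and -0.08. Without the 2 arrays of high Actb difference, the dimmer one with the wider error differed from 0 ZT dark by -0.27 ± 0.23. In the light Cebpd read 9.64, 9.57 and 9.66 at 3 ZT and 9.52, 9.57 and 9.63 at 6 ZT. The light differences were -0.02 ± 0.11 and 0.18 ± 0.11. The 6 ZT dark group also held the highest lens levels: all 13 lens genes were higher there than in 0 ZT dark, with a median difference of 1.14, and 6 of 7 pigment epithelium genes were lower, with a median of -0.42. Their part in the Cebpd difference was not tested.

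Errfi1 encodes an inhibitor of the epidermal growth factor receptor, induced by glucocorticoids in several cell types. It read 10.82, 10.68 and 10.76 in 0 ZT dark, 10.57, 10.68 and 10.76 in 3 ZT dark, and 10.78, 10.43 and 10.63 in 6 ZT dark. It was lower in 6 ZT dark than in 0 ZT dark in all 3 replicas, as were 15.1% of all probe sets, with a mean difference of -0.14 ± 0.12 (limma, adjusted p = 0.734). In the light it read 10.78, 11.01 and 10.65 at 3 ZT and 10.78, 10.68 and 10.52 at 6 ZT. The light differences were 0.14 ± 0.12 and 0.05 ± 0.12, and all conditions overlapped. At 3 ZT the difference was 0.02 ± 0.11 without the 2 arrays of high Actb difference.

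Dusp1 encodes a phosphatase that inactivates MAP kinases, and it is induced both by glucocorticoids and, as an immediate early gene, by many stimuli. Its brightest probe set read 12.28, 12.35 and 12.81 in 0 ZT dark, 12.21, 12.34 and 12.26 in 3 ZT dark, and 12.39, 12.59 and 12.01 in 6 ZT dark. In the light it read 11.71, 12.05 and 12.23 at 3 ZT and 12.15, 12.18 and 12.24 at 6 ZT. Both light groups lay below 0 ZT dark without overlap, as did 1.21% of all probe sets at 3 ZT and 1.81% at 6 ZT, and those 2 comparisons share their control arrays. The differences were -0.48 ± 0.17 (limma, adjusted p = 0.590) and -0.29 ± 0.17 (adjusted p = 0.865). The 3 ZT value holds both arrays of high Actb difference and was -0.56 ± 0.24 without them. Against darkness of the same hour, 3 ZT light was lower in all 3 replicas, as were 9.43% of all probe sets, with differences of -0.50, -0.28 and -0.02 and a mean of -0.27 ± 0.17. At 6 ZT it was lower in 2 of 3, with a mean of -0.14 ± 0.17. Averaged over both hours, Dusp1 had the lowest light difference of the 8 genes, -0.21 ± 0.12, and Klf9 the highest.

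**Figure D3:**
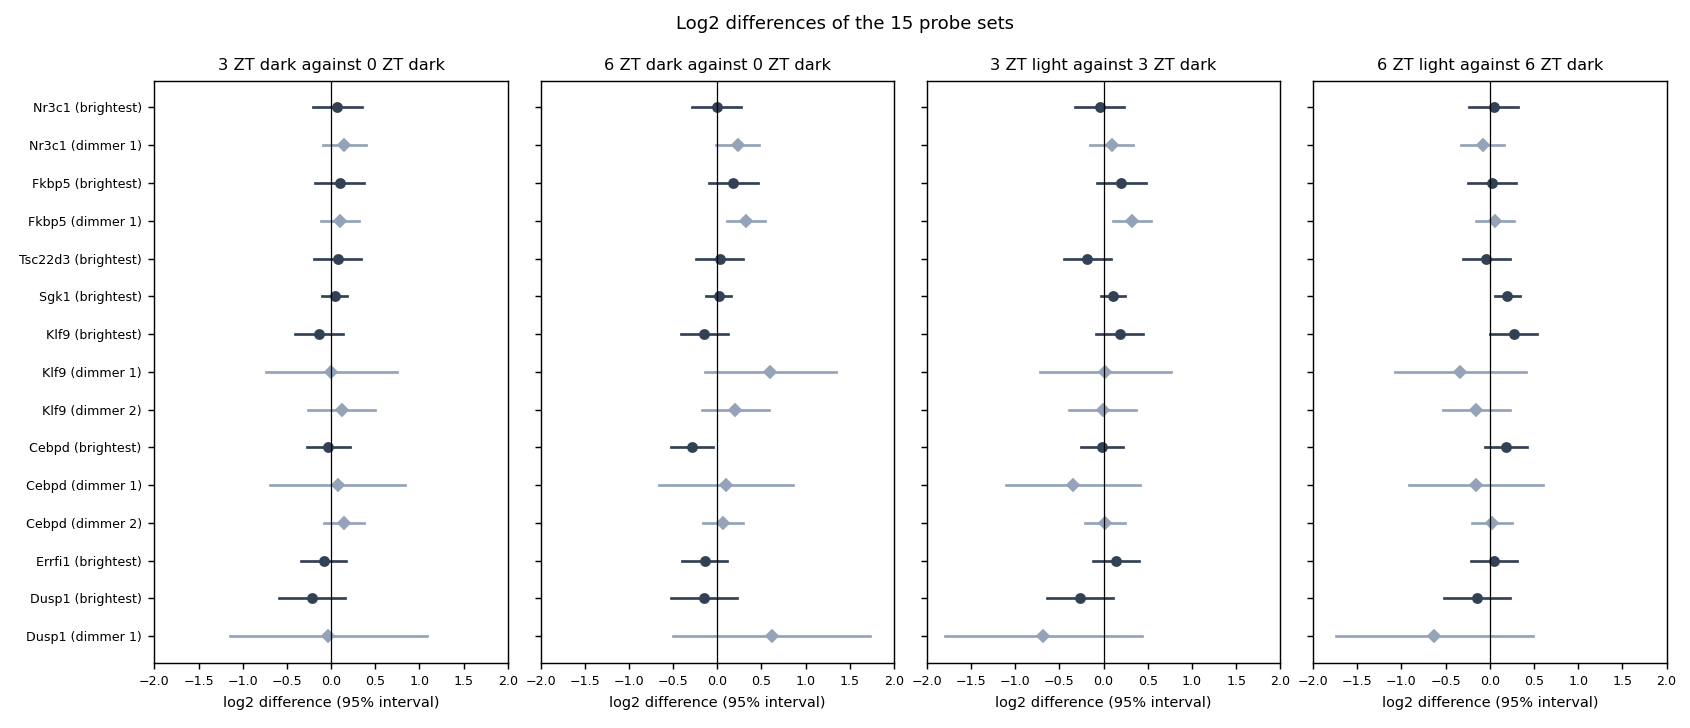
Log2 difference (horizontal axis) with its 95% interval from the linear model for the 15 probe sets in 4 comparisons of 3 arrays each; dark circles are the brightest probe set of a gene and pale diamonds its dimmer ones, in order of mean signal. Most intervals span 0, and the widest belong to dimmer probe sets of Klf9, Cebpd and Dusp1.

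Several probe sets followed the Actb difference, among them the one with the widest intervals. The dimmer Dusp1 probe set read 7.25, 8.72 and 9.68 in 0 ZT dark, 8.42, 8.60 and 8.53 in 3 ZT dark, and 7.76, 6.66 and 9.09 in 3 ZT light. At 6 ZT it read 9.27, 9.04 and 9.19 in darkness and 8.51, 8.21 and 8.90 in light. Its lowest values, 6.66 and 7.25, were in the 2 arrays with the highest Actb difference. Centred within each replica number, its level declined along the Actb difference with a Pearson r of -0.906 (permutation p = 9e-05, 0.000675 after adjustment over the 15 probe sets) and a Spearman rho of -0.827 (permutation p = 0.00026, adjusted p = 0.00195). Without the 2 arrays r was -0.705, and within replicas 1, 2 and 3 it was -0.830, -0.979 and -0.770. For the dimmer Klf9 probe set, r was -0.923 (permutation p = 6e-05, adjusted p = 0.000675), rho was -0.871 (permutation p = 0.00015, adjusted p = 0.00195), and r was -0.858 without the 2 arrays. Of all probe sets, 1.5% had an r as low as that of Dusp1 or lower, and 0.966% as that of Klf9. One Cebpd probe set had an r of -0.828 (permutation p = 0.00627, adjusted p = 0.0313) that came to -0.351 without the 2 arrays, and so rests on them. Among the brightest probe sets, Tsc22d3 had an r of -0.786 (permutation p = 0.0172, adjusted p = 0.0644), which came to -0.025 without the 2 arrays. Errfi1 had 0.690 (permutation p = 0.0329, adjusted p = 0.0976) and Klf9 0.492 (permutation p = 0.0455, adjusted p = 0.0976), which came to 0.242 and 0.172. Those of Nr3c1, Fkbp5, Sgk1, Cebpd and Dusp1 lay between -0.238 and 0.396. These permutations (100000, two-sided, within replica numbers) were chosen after the data were seen.

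With the Actb difference as a covariate, also added after the data were seen, the dimmer Dusp1 probe set differed by -0.34 ± 0.21 in 6 ZT light against 6 ZT dark, in place of -0.63 ± 0.50. Between 0 and 6 ZT in darkness it differed by -0.04 in place of 0.62. For Sgk1 the 6 ZT light difference was 0.21 ± 0.06 and for the brightest Klf9 probe set 0.23 ± 0.11, both close to the values without the covariate. Fkbp5 differed by 0.27 and 0.36 in 6 ZT dark against 0 ZT dark. No member was called in that fit either.

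**Figure D4:**
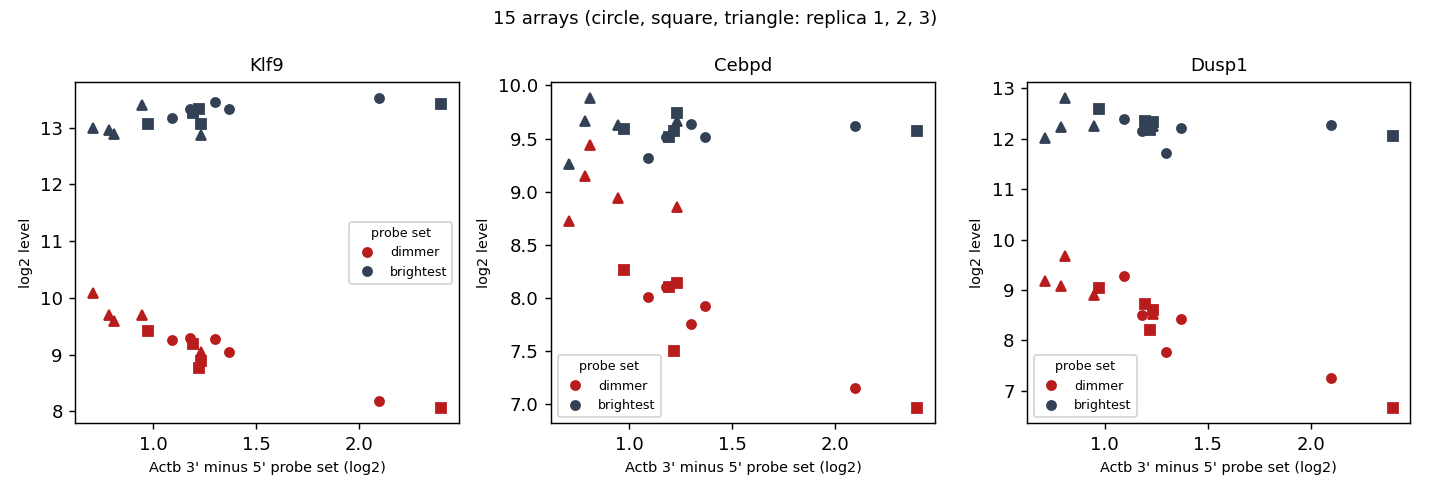
Log2 level (vertical axis) of a dimmer and of the brightest probe set of Klf9, Cebpd and Dusp1 against the difference of the 3′ and 5′ Actb control probe sets (horizontal axis, log2) in 15 arrays, with the replica given by the symbol's shape. The dimmer probe sets of Klf9 and Dusp1 decline along the axis (r of -0.923 and -0.906), unlike the brightest ones (0.492 and -0.238).

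Correlations between the 8 genes were of both signs. Over the 15 arrays, centred within each number, 17 of the 28 pairs of genes had a positive Pearson r, with a median of 0.092 and a range from -0.584 to 0.527, given as a description of arrays that share their processing. Without the 2 arrays 14 of 28 were positive, with a median of 0.032 and a range from -0.518 to 0.633. The same values for other pairs of genes on the array are not given here, so whether the members are unusual in this cannot be said. Among 20826 probe sets with 1 symbol, the genes most like Sgk1 were Cnot6 (r = 0.954), Pros1 (0.921) and Grk5 (0.914). Those most like Fkbp5 were C2cd2l (0.925), Leprot (0.917) and Dpy19l1 (0.902), and those most like Klf9 were Trrap (0.917), Zbtb20 (0.903) and Zcchc14 (0.901). For Dusp1 they were Rasgef1c (0.925), Padi2 (0.905) and Glud1 (0.889). Those most like Nr3c1 were Marchf1 (0.852), Lgalsl (0.848) and Ncoa2 (0.819), the last a gene of the receptor list below. None of these nearest genes was another member. With 3 genes taken per member among so many probe sets, that says little about the members as a group.

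Beyond the 8 genes, a list of the receptor's relatives, chaperones, cofactors and steroid enzymes had 11 of 13 genes measured. None was called in any comparison, and in 6 ZT dark against 0 ZT dark 7 were higher and 4 lower, with a median difference of 0.03. Ncor1, a corepressor of nuclear receptors, was higher in light averaged over both hours by 0.15 ± 0.06 (limma, adjusted p = 0.737). Nr3c2, the mineralocorticoid receptor, differed by -0.28 ± 0.16 in 6 ZT dark against 0 ZT dark. A list of 20 other genes induced by glucocorticoids had 18 measured. In 6 ZT dark against 0 ZT dark 10 were higher and 8 lower with a median of 0.02, which became 7 higher and 11 lower with a median of -0.07 without the 2 arrays. In 6 ZT light against 6 ZT dark 12 were higher and 6 lower with a median of 0.06. None was called. Klf15, a Krüppel-like factor, differed by -0.26 ± 0.10 in 6 ZT dark against 0 ZT dark (limma, adjusted p = 0.532), and Angptl4, an inhibitor of lipoprotein lipase, by 0.43 ± 0.16 in 6 ZT light against 6 ZT dark (adjusted p = 0.537). Glul, the glutamine synthetase of Müller glia, differed by -0.21 ± 0.09 in 3 ZT light against 3 ZT dark (adjusted p = 0.895). All 5 Müller glia markers, Glul among them, were lower there, with a median of -0.21. Their part in the Glul difference was not tested.

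Immediate early genes, to which Dusp1 also belongs, and clock genes were listed too. All 11 immediate early genes were measured and 9 were higher in 6 ZT light than in 6 ZT dark, with a median of 0.27. In that comparison, as given beside Klf9, all 13 lens genes were lower and 6 of 7 pigment epithelium genes higher, and their part in the values of these lists was not tested. Egr1 read 13.37, 13.74 and 11.76 in 6 ZT dark and 14.27, 13.86 and 14.38 in 6 ZT light, a difference of 1.21 ± 0.39 (limma, adjusted p = 0.518). Fos differed by 1.03 ± 0.46 (adjusted p = 0.585). At 3 ZT the same comparison gave 7 of 11 higher, a median of 0.10 and, for Nr4a1, a nuclear receptor gene, -0.50 ± 0.14 (adjusted p = 0.895). With both arrays of high Actb difference left out, 5 of 11 were higher there, with a median of -0.01, and Nr4a1 differed by -0.32 ± 0.12. Of 12 clock genes measured out of 14, 10 had a lower mean with light at 3 ZT than in darkness, with a median difference of -0.13, and 9 without the 2 arrays, with a median of -0.10. In the same comparison all 3 bipolar cell markers measured were lower, with a median of -0.56 that came to -0.07 without the 2 arrays, as were the 5 Müller glia markers. The part of either in the clock gene values was not tested. Per3 differed by -0.64 ± 0.23 in 6 ZT dark against 0 ZT dark (adjusted p = 0.531). Per1, which is both a clock gene and a glucocorticoid target, read 10.60, 10.65 and 10.76 in 0 ZT dark and 10.60, 10.89 and 10.82 in 6 ZT dark, which overlapped. No gene of either list was called.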

How the data were processed

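Retinal RNA from 15 rat samples was measured on Affymetrix RAT230_2 arrays. The authors summarised the arrays by RMA (Robust Multi-array Average), and the log2 values were used as deposited. Whether RMA was run once or by replica number is not given in the sources used here. Median signals differed between numbers, and 20 of 45 sets of 5 arrays held equal values for a member. Groups came from the sample titles. limma 3.58.1 in R 4.3.3 fitted condition and replica number to the 15 arrays, with Benjamini-Hochberg adjustment over 31042 probe sets after 57 controls were left out. The block follows the study's ratios within a number. As a check, deviations of 30 of 30 arrays over 10 pairs of conditions were closest to the array of their own number (lowest r 0.241). No pair of arrays was identical. In simulated data for 3 ZT light against 0 ZT dark over 31042 probe sets, 81 of 100 changes of 1 log2 and 93 of 100 of 2 log2 were recovered, with 7 false among 181 calls. The members' differences were smaller, from -0.714 to 0.649, and the recovery of changes of that size is not given here. Members were named by symbol, with the brightest probe set standing for a gene, and nearest genes were the 3 with the highest r. List genes were named from the 4 of lowest p in each list, apart from Per1, chosen after its values were seen. The members and lists were chosen with earlier results of these data known. Alternatives were other normalizations, no replica block, array weights, a filter on dim probe sets, fewer conditions and arrays left out. The number of arrays limits the precision.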

Additional observations from a re-analysis of the deposited data

How the results depend on the processing

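No member was called under any alternative but 1. This was array quality weights, which gave 6 ZT light replica 3 a weight of 7.45 and its 2 partners 0.49 and 0.46. With them, 2 member probe sets were called in 6 ZT light against 6 ZT dark among 2311 of all probe sets (limma, Klf9 0.43, adjusted p = 0.0249, and Sgk1 0.20, adjusted p = 0.028). In 6 ZT light against 0 ZT dark 1 was called among 676 (the dimmer Fkbp5 probe set, limma, adjusted p = 0.0349). The weights also gave 3 calls in 6 ZT dark against 0 ZT dark, 2 in 3 ZT light against 0 ZT dark and 11 for light averaged over both hours, where the counts were otherwise 0, 1 and 2. In 3 ZT light against 3 ZT dark the count of all probe sets went from 1 to 0 without the replica block, with quantile normalization and with only the conditions compared. In 3 ZT light against 0 ZT dark it was 2 with arrays centred or dim probe sets left out, and 0 with only the conditions compared. For light averaged it was 1 without the replica block, 0 with quantile normalization, with only the conditions compared or with the Actb covariate, and 4 without the 2 arrays of high Actb difference, which gave 3 in 6 ZT light against 0 ZT dark. The replica block moved no other count of calls. With each array left out in turn, no member was called (lowest adjusted p 0.235), and counts over all probe sets ran from 0 to 1 in 6 ZT dark against 0 ZT dark and 3 ZT light against 3 ZT dark, 0 to 2 in 3 ZT light against 0 ZT dark, 0 to 38 in 6 ZT light against 0 ZT dark, where 38 came without 3 ZT light replica 2, and 0 to 3 in 6 ZT light against 6 ZT dark and for light averaged. With ratios above 1.3 or below 0.77, 1 member passed in all 3 replicas (the dimmer Dusp1 probe set, 6 ZT dark against 3 ZT dark). With every probe set, the members' median was 0.06 in 6 ZT dark against 0 ZT dark and 0.01 for light averaged, in place of -0.07 and 0.09. The cause of these changes was not tested.

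Of 576 gene differences under other settings, 534 kept their direction and side of the threshold, and of 1080 with 1 array left out, 1020 did. No difference that changed sign was called in either fit. With quantile normalization, the sign changed in 3 ZT dark against 0 ZT dark Cebpd 0.005, in 6 ZT dark against 0 ZT dark Nr3c1 0.030, in 6 ZT dark against 3 ZT dark Sgk1 0.013 and Klf9 0.038, in 6 ZT light against 6 ZT dark Nr3c1 -0.010 and Fkbp5 -0.042 and Errfi1 -0.008, in light against darkness averaged over 3 and 6 ZT Nr3c1 -0.017, in the difference of the light effects at 6 and 3 ZT Sgk1 -0.002 and Klf9 -0.028. With arrays centred on their medians, the sign changed in 6 ZT dark against 0 ZT dark Nr3c1 0.009, in 6 ZT light against 6 ZT dark Fkbp5 -0.013, in light against darkness averaged over 3 and 6 ZT Nr3c1 -0.018. With array quality weights, the sign changed in 3 ZT dark against 0 ZT dark Cebpd 0.062, in 6 ZT dark against 0 ZT dark Nr3c1 0.073, in 6 ZT dark against 3 ZT dark Klf9 0.012 and Dusp1 -0.009, in 3 ZT light against 0 ZT dark Cebpd 0.048 and Errfi1 -0.021, in 6 ZT light against 0 ZT dark Tsc22d3 0.008, in 6 ZT light against 6 ZT dark Fkbp5 -0.046 and Tsc22d3 0.006 and Errfi1 -0.091, in light against darkness averaged over 3 and 6 ZT Nr3c1 -0.042 and Errfi1 -0.042. Without the 2 arrays of high Actb difference, the sign changed in 6 ZT dark against 0 ZT dark Nr3c1 0.14 and Tsc22d3 -0.043 and Sgk1 -0.001, in 3 ZT light against 0 ZT dark Cebpd 0.005 and Errfi1 -0.066, in 3 ZT light against 3 ZT dark Cebpd 0.029, in the difference of the light effects at 6 and 3 ZT Tsc22d3 -0.004 and Errfi1 0.031. With the Actb difference as a covariate, added after the data were seen, the sign changed in 6 ZT dark against 0 ZT dark Nr3c1 0.066 and Tsc22d3 -0.11, in 6 ZT dark against 3 ZT dark Klf9 0.064 and Errfi1 0.012, in 6 ZT light against 6 ZT dark Fkbp5 -0.016 and Tsc22d3 0.020, in light against darkness averaged over 3 and 6 ZT Nr3c1 -0.033. With 1 array left out, these results changed sign. In 3 ZT dark against 0 ZT dark the ranges were Tsc22d3 -0.015 to 0.128, Nr3c1 -0.042 to 0.236, Cebpd -0.139 to 0.077, Errfi1 -0.164 to 0.006, Fkbp5 -0.019 to 0.201. In 6 ZT dark against 0 ZT dark the ranges were Nr3c1 -0.116 to 0.138, Tsc22d3 -0.061 to 0.115, Sgk1 -0.003 to 0.036, Dusp1 -0.282 to 0.087. In 3 ZT light against 0 ZT dark the ranges were Nr3c1 -0.086 to 0.168, Klf9 -0.050 to 0.139, Cebpd -0.155 to 0.060, Tsc22d3 -0.202 to 0.049, Errfi1 -0.067 to 0.134. In 6 ZT light against 0 ZT dark the ranges were Tsc22d3 -0.101 to 0.038, Nr3c1 -0.072 to 0.183, Cebpd -0.206 to 0.009, Klf9 -0.018 to 0.237. In 6 ZT dark against 3 ZT dark the ranges were Fkbp5 -0.022 to 0.198, Klf9 -0.070 to 0.038, Tsc22d3 -0.103 to 0.042, Sgk1 -0.076 to 0.016, Nr3c1 -0.243 to 0.021, Errfi1 -0.148 to 0.053, Dusp1 -0.067 to 0.302. In light against darkness averaged over 3 and 6 ZT the ranges were Nr3c1 -0.084 to 0.048. In 3 ZT light against 3 ZT dark the ranges were Nr3c1 -0.212 to 0.051, Cebpd -0.063 to 0.036. In the difference of the light effects at 6 and 3 ZT the ranges were Nr3c1 -0.007 to 0.257, Tsc22d3 -0.012 to 0.239, Errfi1 -0.204 to 0.031, Dusp1 -0.112 to 0.257, Klf9 -0.055 to 0.199. In 6 ZT light against 6 ZT dark the ranges were Tsc22d3 -0.128 to 0.014, Nr3c1 -0.004 to 0.071, Errfi1 -0.063 to 0.124, Fkbp5 -0.103 to 0.101. Among the values that kept their sign with every array left out were the light differences of Sgk1 and the brightest Klf9 probe set at 6 ZT. Both were higher in light in all 3 replicas, so leaving out 1 array could hardly change their sign. The 2 other Klf9 probe sets differed there by -0.33 and -0.15. Other values kept their sign too, such as the light difference of Dusp1 at 3 ZT (-0.379 to -0.155).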
